A study of Homo sapiens with 3 samples.

Results

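The miR-34 and miR-449 microRNAs (miRNAs) form a family joined by a common seed, the stretch near the 5′ end through which a miRNA pairs with its targets. The members described here were chosen by name and are hsa-miR-34a-5p, hsa-miR-34a-3p, hsa-miR-34b-5p, hsa-miR-34b-3p, hsa-miR-34c-5p, hsa-miR-34c-3p and hsa-miR-449a, which are 7 of the 2588 mature miRNAs counted. They were measured by small RNA sequencing in 3 unmodified human cancer cell lines, with 1 library per line. C643 is a line from anaplastic thyroid carcinoma, ES-2 is an ovarian cancer line and Huh-7 is a hepatocellular carcinoma line. All were parental cells grown in DMEM with serum, without a treatment or a genetic change, and were harvested 48 h after seeding. Because each line stands for a single culture, no difference below has a replicate check, no p-value is given, and every difference is one between libraries.

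MIR34A and the MIR34B/MIR34C pair are known as tumor suppressor miRNA genes that are switched on by DNA damage and other stress. Their 5p arms repress mRNAs of cell cycle and survival factors such as CCND1, CDK6, MET and BCL2, and the loci are often silenced by promoter methylation in tumors. The miR-449 cluster lies in a host gene of multiciliated cells, where miR-449 and miR-34b/c act together in the formation of motile cilia, and its transcription is raised by E2F1. Stress signalling and promoter methylation were not measured in these libraries.

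The mature sequences show how closely the members are related, and they also set which reads can be told apart. RefSeq (GRCh38.p14) mature sequences were matched for 6 of the 7 members, all but hsa-miR-34c-5p. In the following lines bases 2 to 8, the seed, are in capitals. The matched 5p arms of the family, with hsa-miR-449b-5p and hsa-miR-449c-5p from the same cluster as miR-449a, and hsa-miR-2682-5p from another locus, are shown because all carry the family seed or its shifted form.
hsa-miR-34a-5p: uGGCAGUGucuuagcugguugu
hsa-miR-449a: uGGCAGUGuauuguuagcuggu
hsa-miR-449b-5p: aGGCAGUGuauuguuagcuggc
hsa-miR-34b-5p: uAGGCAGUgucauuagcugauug
hsa-miR-449c-5p: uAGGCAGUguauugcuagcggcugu
hsa-miR-2682-5p: cAGGCAGUgacuguucagacguc

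The first 3 share bases 2 to 8. In the other 3 the same bases stand 1 position further from the 5′ end, so that their seed is a shifted form of the first. The closest pair was miR-449a and miR-449b-5p, at an edit distance of 2 (the number of single base substitutions, insertions or deletions that turns one sequence into the other). miR-34a-5p was 4 edits from miR-34b-5p and 6 from miR-449a. The 3p arms of the miR-34 precursors do not carry this seed.
hsa-miR-34a-3p: cAAUCAGCaaguauacugcccu
hsa-miR-34b-3p: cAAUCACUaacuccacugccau
hsa-miR-34c-3p: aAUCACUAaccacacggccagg

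Each of these 3p arms has its own seed, and miR-34b-3p was 6 edits from both other 3p arms. The precursor of miR-34a is shown with the mature 5p and 3p arms in capitals, since its arms were the best covered of the family.
MIR34A: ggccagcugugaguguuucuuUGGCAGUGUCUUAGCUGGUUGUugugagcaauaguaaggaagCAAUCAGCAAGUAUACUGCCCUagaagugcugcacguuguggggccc

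The 7 members came from 4 loci, each counted once in GRCh38. MIR34A lies on the minus strand at chr1:9151668-9151777, in an exon of the long noncoding RNA gene MIR34AHG. MIR34B at chr11:111512938-111513021 and MIR34C at chr11:111513439-111513515 lie on the plus strand, 417 bases apart, and overlap no other gene of GENCODE 29. MIR449A, on the minus strand at chr5:55170532-55170622, lies in an intron of CDC20B, with MIR449B 23 bases away.

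The columns held 8183100 reads for C643, 1663181 for ES-2 and 2173587 for Huh-7, recovered from the deposited values. C643 was deposited in a table of its own, and ES-2 and Huh-7 shared another. Levels are given as the share of all miRNA reads of a library, with Wilson 95% intervals that cover counting error alone. By counting error alone, 3 reads were taken as the limit that a count of 0 allows. That limit was 3.67e-05% for C643, 0.00018% for ES-2 and 0.000138% for Huh-7. Liver markers were in place, as the hepatocyte miRNAs miR-122-5p and miR-885-5p made up 13.8% of the Huh-7 reads, 0.00587% of those of C643 and 0.000361% of those of ES-2.

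The family was scarce in every library. It was listed at 0 in C643, while ES-2 had 16 reads and Huh-7 652. The ES-2 reads are a share of 0.000962% (95% interval 0.000592 to 0.00156), and for Huh-7 the share was 0.0300% (0.0278 to 0.0324). In Huh-7 nearly all of it was miR-34a-5p, with 94.9% of the family's reads, whereas in ES-2 the same miRNA had 37.5%. More than 3 reads were found for 0 of the 7 members in C643, against 22.9% of all listed miRNAs. ES-2 had 2 such members, against 17.1%, and Huh-7 had 3, against 26.5%. With so few members these counts are a description of how many could be seen, and in bulk RNA fewer cells with a miRNA cannot be told apart from less of it per cell.

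**Figure D1:**
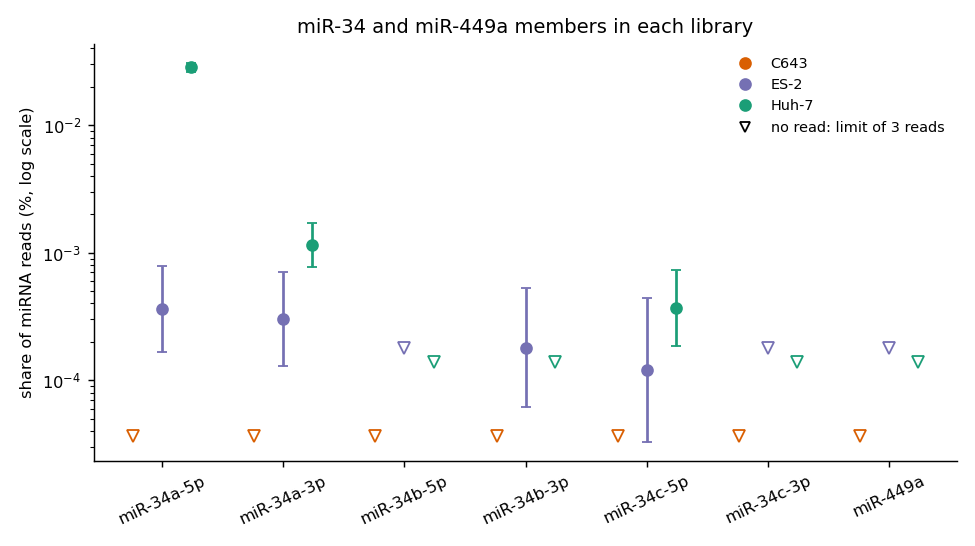
Share of all miRNA reads (%, log scale) of the 7 members in C643, ES-2 and Huh-7, with Wilson 95% intervals, 1 library per line. Open triangles stand for members without a read and are drawn at the limit of 3 reads. miR-34a-5p in Huh-7, at 0.0285%, lies above every other point.

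miR-34a-5p, the best studied product of the family, was read 619 times in Huh-7 and 6 times in ES-2 and was listed at 0 in C643. Its share was 0.0285% in Huh-7 (0.0263 to 0.0308) and 0.000361% in ES-2 (0.000165 to 0.000787). By reads it was number 133 of the 858 miRNAs detected in Huh-7, next to miR-146b-5p at 629 reads above and miR-130b-3p at 608 below. In ES-2 it shared its 6 reads with other miRNAs and stood at number 371 of 608. miR-21-5p, the oncogenic miRNA at the center of the study, had 1169 reads in Huh-7 for each read of miR-34a-5p.

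Between Huh-7 and ES-2 the share of miR-34a-5p was 78.9-fold higher in Huh-7, with a counting interval of 36.1 to 216. On the deposited scale, where the ES-2 column sums to 1.89 times the Huh-7 column, the ratio was 41.8 (19.1 to 114). Of all miRNAs with a deposited value of at least 10 in either library, 39.2% were at least 4-fold higher in Huh-7 by share (153 of 390) and 16.7% at least 4-fold lower (65). On the deposited scale these numbers were 111 and 80. Of the family, miR-34a-5p was the member that reached the value of 10, at 174 in Huh-7 against 4.17 in ES-2. It was thus admitted through Huh-7, the library where it was high, and was among those at least 4-fold higher there.

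The 3p arm of miR-34a, the less abundant strand of its duplex, was read 25 times in Huh-7, 5 times in ES-2 and not at all in C643. Its share was 0.00115% for Huh-7 and 0.000301% for ES-2. The ratio of 3.83 had a counting interval of 1.44 to 12.8 by share, but on the deposited scale it was 2.03 with an interval of 0.763 to 6.78, which includes equal levels. A difference in miR-34a-3p between ES-2 and Huh-7 therefore depended on the scale.

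**Figure D2:**
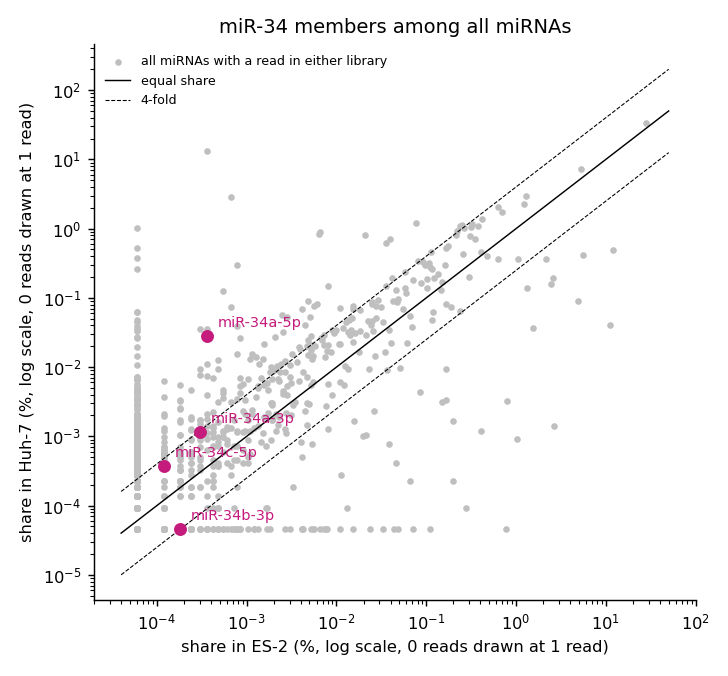
Share of each miRNA in ES-2 and in Huh-7 (%, log scales, 0 reads drawn at 1 read), with all miRNAs that had a read in either library in grey and the detected members in magenta. The solid line marks equal shares and the dashed lines 4-fold differences. miR-34a-5p lies 78.9-fold toward Huh-7, and the other detected members lie at or inside the dashed lines.

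The products of the MIR34B and MIR34C pair, which are transcribed together, were at or near the limit everywhere. miR-34c-5p was read 8 times in Huh-7, 2 times in ES-2 and not at all in C643, and its ratio of Huh-7 to ES-2 was 3.06 by share with a counting interval of 0.611 to 29.6. miR-34b-3p had 3 reads in ES-2 and none in the other libraries. miR-34b-5p and miR-34c-3p were listed at 0 in all 3. Summed over both precursors Huh-7 had 8 reads, ES-2 had 5 and C643 had none, and the ratio of Huh-7 to ES-2 was 1.22 (0.353 to 4.76). No difference in miR-34b/c between Huh-7 and ES-2 was detectable at this depth, while that of miR-34a-5p was.

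miR-449a was listed at 0 in all 3 libraries, which by counting error alone allows shares up to the limits given above. In C643 a listed 0 may not be bounded by that limit, as the arm predictions below show. Of the other products of its cluster, miR-449b-5p, miR-449b-3p and miR-449c-3p were also at 0 in each library, and miR-449c-5p had 3 reads in ES-2. The miRNAs taken as markers of multiciliated epithelium, miR-449a, miR-449b-5p, miR-449c-5p, miR-34b-5p and miR-34c-5p, summed to 8 reads for Huh-7, 5 for ES-2 and 0 for C643. This list holds members of the family and is not an independent marker, and its 8 reads in Huh-7 were all miR-34c-5p.

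All 7 members were listed at 0 in C643, the deepest library, which was compared by share because it was deposited in a table of its own. Against the limit of 3 reads, the share of miR-34a-5p was 777-fold in Huh-7 and 9.84-fold in ES-2. These ratios leave out the counting error of the reads in Huh-7 and ES-2. Taken from the lower end of their Wilson intervals, the shares were at least 718-fold and at least 4.51-fold that limit. The ratio of 777 is 9.60 on the log2 scale and was 8.95 in deposited values. For miR-34a-3p the lower ends were 21.3-fold the limit in Huh-7 and 3.50-fold in ES-2, and for miR-34c-5p 5.09-fold in Huh-7. Among miRNAs with a deposited value of at least 10 in either library, 33.1% were at least 4-fold higher in Huh-7 than in C643 and 20.3% at least 4-fold higher in C643. Between ES-2 and C643, 10.3% were higher in the former and 20.2% in the latter, and no member reached the value of 10 in that pair. A cut at the 619 reads of miR-34a-5p in Huh-7 counts miR-34a-5p itself, and so does not judge its 0. Of the 133 miRNAs at or above this cut, 4, or 3.01%, had none in C643. These were miR-34a-5p, miR-215-5p, miR-429 and miR-95-3p, a set found after the values had been seen.

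A zero in C643 did not always mean that its hairpin was silent. For precursors with both arms listed, the reads of each arm were predicted from its partner arm and from the arm ratio in the other libraries. Of the arms predicted at 20 reads or more, 7.91% were listed at 0 in C643 (20 of 253). For ES-2 this was 1.73% (3 of 173) and for Huh-7 1.38% (3 of 218). The largest predictions listed at 0 in C643 were 702 reads for miR-338-5p and 198 for miR-1914-3p. That of miR-338-5p rests on 4 reads of its partner arm in Huh-7. A further one was miR-183-3p, predicted at 72.8 reads and listed at 0 beside 8349 reads of miR-183-5p. Another was miR-17-3p, predicted at 36.7 reads and listed at 0 beside 1874 reads of miR-17-5p. The examples of miR-183-3p and miR-17-3p were picked after their values had been seen. For miR-34a both arms were at 0 in C643, so no such prediction could be made. The ratios to the limit in C643 hold for the values as listed, and the part of these zeros in them was not tested.

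**Figure D3:**
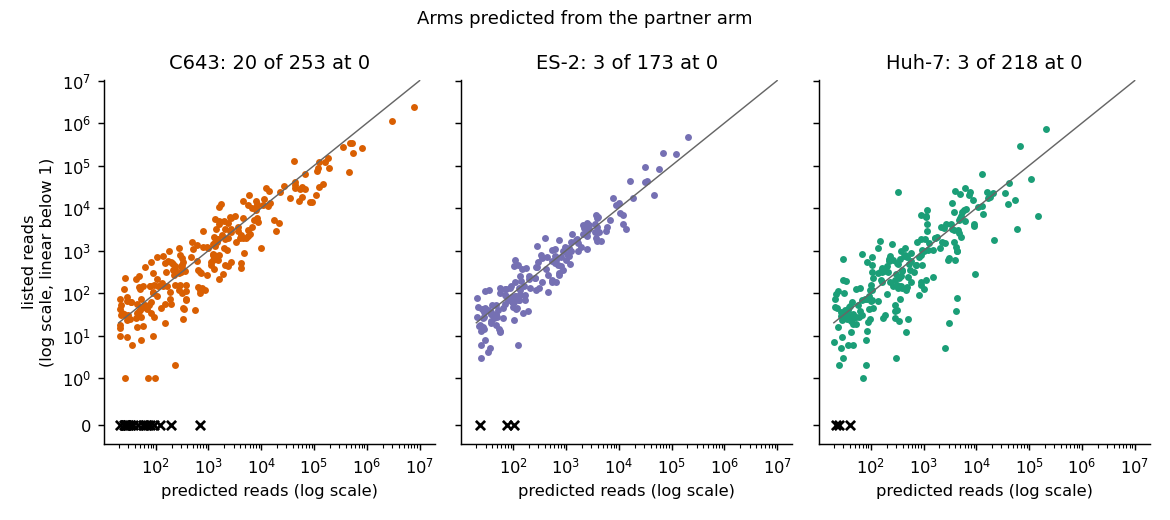
Reads predicted for a miRNA arm from its partner arm (log scale) against the reads listed (log scale, linear below 1), for arms predicted at 20 reads or more in each library. Crosses mark arms listed at 0, which were 20 of 253 for C643, 3 of 173 for ES-2 and 3 of 218 for Huh-7, and the line marks equal values.

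The arms of miR-34a were used unequally in Huh-7, while the ES-2 interval included equal use. The 5p arm made up 96.1% of the reads of the precursor in Huh-7 (94.3 to 97.4), and 54.5% in ES-2 (28.0 to 78.7) on 6 reads against 5. With 1 read added to each arm, the ratio of 5p to 3p reads differed 20.4-fold between the lines. Across 169 precursors compared in the same way, 21.9% differed at least 4-fold, and 7, with miR-34a among them, differed by as much. This ratio is formed within a library and does not depend on the scaling, but in ES-2 it rests on 11 reads. The reads of miR-34a-5p in ES-2 equalled 0.969% of its reads in Huh-7 and those of miR-34a-3p 20%. For the liver miRNA miR-122-5p, with 288469 reads in Huh-7, the same figure was 0.00208%.

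Among the printed sequences, the exact seed of miR-34a-5p was carried by miR-34a-5p, miR-449a and miR-449b-5p. Summed over these, C643 had 0 reads, while ES-2 had 6 and Huh-7 619. The MIR34C hairpin also holds the bases of this seed on its 5p side. The mature sequence of miR-34c-5p was not matched, so its counts (C643 0, ES-2 2, Huh-7 8) were left out. A sequence was matched for 2281 of the 2588 listed miRNAs (88.1%). The sums over seed carriers may thus miss miR-34c-5p and others. The shifted form of the seed was present in C643 through miR-2682-5p, a miRNA from another locus (chr1:98045307-98045329, minus strand) printed above. miR-2682-5p had 668 reads in C643, and 20 and 6 reads in Huh-7 and ES-2. Its share of 0.00816% in C643 (0.00757 to 0.00881) was 22.6-fold that of ES-2 (counting interval 10.3 to 61.9) and 8.87-fold that of Huh-7 (5.70 to 14.6). On the deposited scale the latter ratio was 13.9. Summed over the 6 miRNAs printed above with the seed or its shifted form, a sum that does not hold miR-34c-5p, C643 had 668 reads, ES-2 15 and Huh-7 639, which are shares of 0.00816%, 0.000902% and 0.0294%. The order of the lines for these 6 was thus Huh-7, C643 and ES-2, with C643 carried by miR-2682-5p and Huh-7 by miR-34a-5p. Whether both repress the same mRNAs was not measured.

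**Figure D4:**
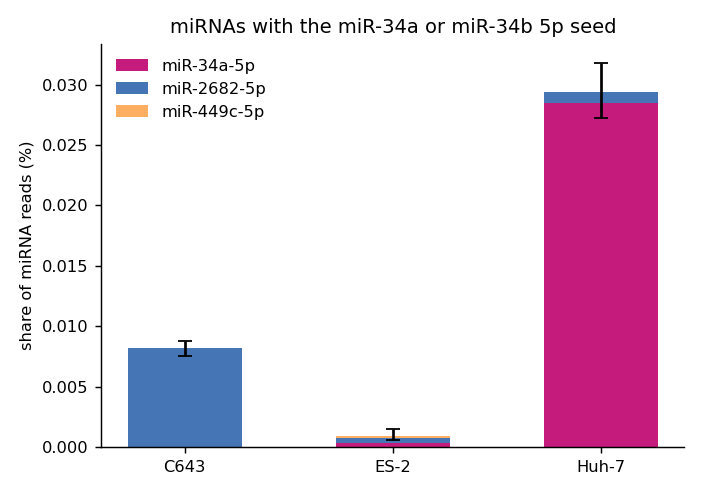
Summed share of miRNA reads (%) of the 6 printed miRNAs with the miR-34a-5p seed or its shifted form, miR-34c-5p not included, in C643, ES-2 and Huh-7, stacked by miRNA, with the Wilson 95% interval of the sum. miR-2682-5p makes up the bar of C643 and miR-34a-5p most of that of Huh-7, and the bar of ES-2 stands for 15 reads.

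The miRNAs whose pattern was most like miR-34a-5p were sought among 423 miRNAs by the distance between log2 shares centred over the 3 libraries. They were miR-375, a miRNA of endocrine and epithelial cells, at a distance of 0.24, followed by miR-618 at 0.71, miR-200a-3p at 0.77, miR-95-3p at 0.93 and miR-429 at 0.98, against a median of 6.38. miR-375 was read 762 times in Huh-7, 6 times in ES-2 and 1 time in C643. miR-200a-3p and miR-429, which belong to the miR-200 family that keeps cells epithelial, had 570 and 780 reads in Huh-7 and at most 1 read in each other library. With 3 libraries the likeness says no more than that these miRNAs were high in Huh-7 and at or near 0 elsewhere. The epithelial list of miR-200a-3p, miR-200b-3p, miR-200c-3p, miR-141-3p and miR-429 took 0.382% of the Huh-7 reads, 0.00523% of those of ES-2 and 0.00125% of those of C643. Most of the list's reads in Huh-7 came from miR-200b-3p, with 6558, and miR-200c-3p had 394 there and 66 in ES-2. miR-141-3p was not higher in Huh-7, with 4 reads there and 7 in ES-2.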

How the data were processed

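Small RNA was sequenced from total RNA of 3 cell lines, 1 library each, with ligation adapters carrying random bases. Per the labels, the submitters' processing notes name cutadapt 1.14, Bowtie2 2.3.3, SAMtools 1.5, featureCounts 1.5.3 and edgeR 3.18.1 and build hg38. The miRNA annotation version and the handling of reads with several matches are not given in the sources used here. The deposited tables hold a normalized signal per miRNA locus, called CPM by the authors, in columns that do not sum to 1000000. All values were whole multiples of 1 read (tolerance 0.01), so whole reads were recovered. Loci of a miRNA were summed.

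Shares of column reads were given with Wilson 95% intervals, ratios of shares with exact conditional binomial intervals. Reads are not independent molecules, so these cover counting error alone. Called means at least 4-fold apart, among miRNAs with a deposited value of at least 10 in either library. An exact binomial test of reads, tested on simulated data and adjusted after Benjamini-Hochberg, found 360 of 390 miRNAs to differ between ES-2 and Huh-7. miR-34a-5p was among them, but it was the 1 member tested and was admitted through Huh-7, where it was high. With so many differing, this says nothing particular to miR-34a-5p. The test compares those libraries and not the lines. The members and the cell type markers were chosen with earlier results of these data known. Named were all members, their seed relatives with more than 3 reads, the rank neighbours of miR-34a-5p and the 5 miRNAs nearest to it. Lists of other miRNAs that were part of the design are not reported here. Alternatives were scaling, pseudocount, filter, fold and the reads used. Python 3.11.15, pandas 2.3.3 and SciPy 1.17.1 were used.

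Marker miRNAs of blood cells took 0.127% of the Huh-7 reads, 0.0486% for ES-2 and 0.00246% for C643. The Huh-7 value rests on miR-486-5p, with 2766 reads, while miR-142-3p was at 0 there and had 542 reads in ES-2. Those of muscle took 0.00129%, 0.00018% and 0.000122% in that order.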

Additional observations from a re-analysis of the deposited data

How the results depend on the processing

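No paired analysis was possible because no line had more than 1 library. In every alternative run, the family was higher in Huh-7 than in ES-2. It stayed listed at 0 in C643, which no scaling or subset of its members could change. The family's share in Huh-7 was 0.0184% when the deposited value was divided by 1000000, 0.0450% without miR-21-5p reads and 0.0329% with the highest locus alone of each miRNA in the total. In ES-2 it was 0.000481% over the 5p side alone. The ratio of Huh-7 to ES-2, 31.2 by share, was 16.5 on the deposited scale, 15.7 after median-ratio scaling and 60.0 over the 5p side. The ratio of Huh-7 to the limit of 3 reads in C643, 818 by share, was 522 on the deposited scale, 476 after median-ratio scaling and 747 with the highest locus alone, and that of ES-2, 26.2 by share, was 13.1 over the 5p side. With all members of more than 3 reads admitted, 3 were 4-fold or more above C643 in Huh-7 (41.6% of all miRNAs so admitted were) and 2 were so in ES-2 (15.2%), since the filter had left out low members. These member counts were fixed by the setting. At these depths, any member at 0 in C643 and above 3 reads in the other library is more than 4-fold above the limit. With 1 library per line the spread between cultures is unknown, and values of 3 reads or fewer cannot be ordered.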
